A study of Rattus norvegicus with 18 samples.

Results

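Kidney tissue of a diabetic nephropathy model (DN) was compared with kidney tissue of control animals (Ctrl) by sequencing of polyadenylated RNA. The comparison took all 6 DN and all 6 Ctrl libraries, 12 of the 18 libraries of the series, as their titles name them, and every expressed gene. Control animals received ordinary feed and solvent by gavage. Model animals received a high-fat diet and an injection of STZ (streptozotocin), and the series description gives 6 animals per group without their strain, sex or age. The remaining 6 libraries came from model animals given a preparation named TSK, and they entered only the estimate of the spread. The labels give the animals as rats, whereas all 55335 gene identifiers of the count table are mouse Ensembl identifiers. The table does not pair them with names, 0 of them matched the rat gene table used here, and genes are therefore described by number, size and level, with at most 2 identifiers printed per direction of a comparison. For the same reason the labelled tissue could not be checked against kidney marker genes, and 47 lists of kidney cell types and pathways could not be applied.

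Streptozotocin destroys the insulin-producing beta cells of the pancreas, and together with a high-fat diet it is used to give rodents high blood glucose on a background of insulin resistance. Diabetic nephropathy is the kidney disease that follows long exposure to high glucose. It affects the filtering glomerulus, whose podocytes and basement membrane change, and the tubules, which take back the filtered glucose and whose surroundings can scar. In bulk tissue a lower level of a transcript can come from fewer cells of a type or from less RNA per cell, and these cannot be told apart.

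The 12 libraries held 25505257 to 35275498 counts. Of the 19233 genes that passed a filter on low counts, those at 1 CPM or more (counts scaled to a common library total) numbered 15637 ± 141 per library in DN and 15380 ± 145 in Ctrl (SD, n = 6 each; exact permutation p = 0.0173, two-sided, and 0.0433 once adjusted over 5 library measures by Benjamini-Hochberg). Identifiers with at least 1 count numbered 26653 ± 529 in DN and 25960 ± 332 in Ctrl (exact permutation p = 0.0325, adjusted 0.0541), which did not pass. The 10 most abundant genes of each library took 21.1% ± 1.70 of its counts in DN and 18.3% ± 0.88 in Ctrl (exact permutation p = 0.00216, adjusted 0.0108). Control library 4, described next, had 15636 genes at 1 CPM or more and 26316 identifiers with a count, both inside the DN ranges of 15441 to 15779 and 25861 to 27114, whereas its 10 most abundant genes took 16.7%, the lowest share of the 12. Total counts (exact permutation p = 0.714) were not distinguishable between the groups.

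A pair of control libraries stood apart from the other controls. Control library 5 held 40 genes and control library 4 held 25 genes at 5 CPM or more and at least 10 times above each other control, whereas the remaining controls held 0 to 5 such genes and the DN libraries, set against each other, 0 to 4. These genes took 0.774% of the counts of control library 5 and 0.198% of those of library 4. Control library 4 also differed from the other 5 controls in kind. A search for identifiers with at least 50 counts in each library on the high side and a gap of at least 10-fold found 5 that set the other 5 controls against library 4 and all DN and TSK-treated libraries. Of these, ENSMUSG00000086503 had 38313 to 52784 counts in each of the other 5 controls, 23 in library 4 and 12 to 41 in the DN libraries. The other 4 had 0 or 1 count in each of the other 5 controls, 1153 to 3408 in library 4 and 868 to 3794 in the DN libraries, and ENSMUSG00000069045 and ENSMUSG00000069049 were the most abundant of them. The same search found 0 such identifiers when any other control took the place of library 4. For these transcripts library 4 was the control that resembled the DN libraries, and the labels do not say what sets the other 5 controls apart. The sex of the animals is not in the labels either. All-or-none transcripts of this kind are known from genes of the sex chromosomes, and whether these identifiers are such genes was not tested, because no table used here names them. If the other 5 controls differ from the DN animals in sex, that difference and the model cannot be told apart in the calls made with all 6 controls. Results are therefore given with all 6 controls and, where both can be computed, also against library 4 alone.

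With all 6 controls, DN kidneys differed in the level of 6202 genes, 3254 higher (16.9% of the genes tested) and 2948 lower (15.3%), together 32.2% (edgeR quasi-likelihood test, Benjamini-Hochberg adjusted p under 0.05). The median log2 fold change was 0.66 among the genes that rose and -0.58 among those that fell, beside 0.0079 over all genes. The larger the change, the more it went upward. At a fitted change of at least 1.5-fold, 1812 genes rose and 1467 fell. At 4-fold or more the counts were 361 and 153, and at 16-fold or more 134 and 23. Transcripts at 1 CPM or more made up most of the last class: 67 of the 134 rises averaged 1 to 5 CPM in DN, 37 averaged 5 CPM or more, and 30 stayed under 1 CPM. Of the 23 falls, 18 came from a control mean of 5 CPM or more. Among them was ENSMUSG00000086503, which divides the controls. Its log2 fold change was -10.67 with all 6 controls and -0.11 against library 4 alone, so a large fall here need not hold against library 4.

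Direction also varied with the level of the gene. Among 3472 genes with a mean under 1 CPM over the 12 libraries, 414 were higher and 137 lower in DN. In the class from 1 to under 10 CPM (5982 genes) 1081 were higher and 669 lower. From 10 to under 100 CPM (8156 genes) the balance turned, with 1484 higher and 1723 lower, and among the 1623 genes at 100 CPM or more 275 were higher and 419 lower. The typical called change shrank with level, from a median absolute log2 fold change of 1.59 under 1 CPM to 0.45 between 10 and 100 CPM and 0.52 above.

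The 10 most abundant genes, with means from 12660 to 61728 CPM, had positive log2 fold changes without exception (0.12 to 0.42). Of the 10, 2 passed the test, beside 32.2% of all genes. Against control library 4 alone their log2 fold changes ran from 0.30 to 0.77. These signs are not a result separate from the larger share of counts that the most abundant genes took in DN.

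For 3122 genes (16.2%) the 6 DN and the 6 control libraries did not overlap at all, with DN above every control for 1604 (8.34%) and below every control for 1518 (7.89%). Among all identifiers, 6 had no count in any control, library 4 included, and at least 10 counts in every DN library, with DN means from 0.645 to 69.2 CPM. All 6 were called with all controls, which their selection from the same counts all but fixed in advance. The reverse pattern, at least 10 counts in every control and none in DN, was found for 0 identifiers. Against the single library 4, 66 identifiers had no count there and at least 10 in every DN library, and 37 had at least 10 there and none in DN. The former had to be present in 6 libraries and the latter in 1 only. Their numbers therefore cannot be set against each other or against the 6 and 0. All 6 DN libraries lay above library 4 for 4748 genes (24.7%) and below it for 4973 (25.9%).

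Against control library 4 alone, DN kidneys differed in 986 genes (5.13% of 19233), 451 higher (2.34%) and 535 lower (2.78%). Changes of 2-fold or more numbered 328 upward and 350 downward. This contrast came from the same libraries with a separate coefficient for library 4, so that the lone library was assumed to vary like the libraries of the other groups. Against the other 5 controls the same fit called 6072 genes (31.6%), 3281 higher (17.1%) and 2791 lower (14.5%). The 10th and 90th percentiles of the log2 fold change over all genes were -0.82 and 0.85 against library 4 and -0.62 and 0.80 against the other 5. The median SE was 0.30 for library 4 and 0.17 for the other 5. This error widens the spread of the fold changes, so the percentiles do not show whether the changes were of similar size. A call against library 4 accordingly needed a larger change, and the median log2 fold change of the called genes was 1.52 upward and -1.25 downward. Large changes numbered 165 rises and 100 falls of at least 4-fold and 78 and 9 of at least 16-fold. The filter on low counts can keep a gene present only in DN, whereas a gene present only in library 4 can be dropped. Large rises and large falls against library 4 therefore cannot be set against each other. Whether their excess holds without the filter was not tested. Over all calls the balance moved with the scaling: without TMM factors, on plain library totals, the share of higher genes among the calls went from 45.7% to 32.7%, with the median of all genes shifted from 0.0091 to -0.10. With DESeq2, which made 1695 calls, it was 55.0%, so that the balance of directions against library 4 was not settled. Without a filter on low counts 641 genes were called.

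**Figure D1:**
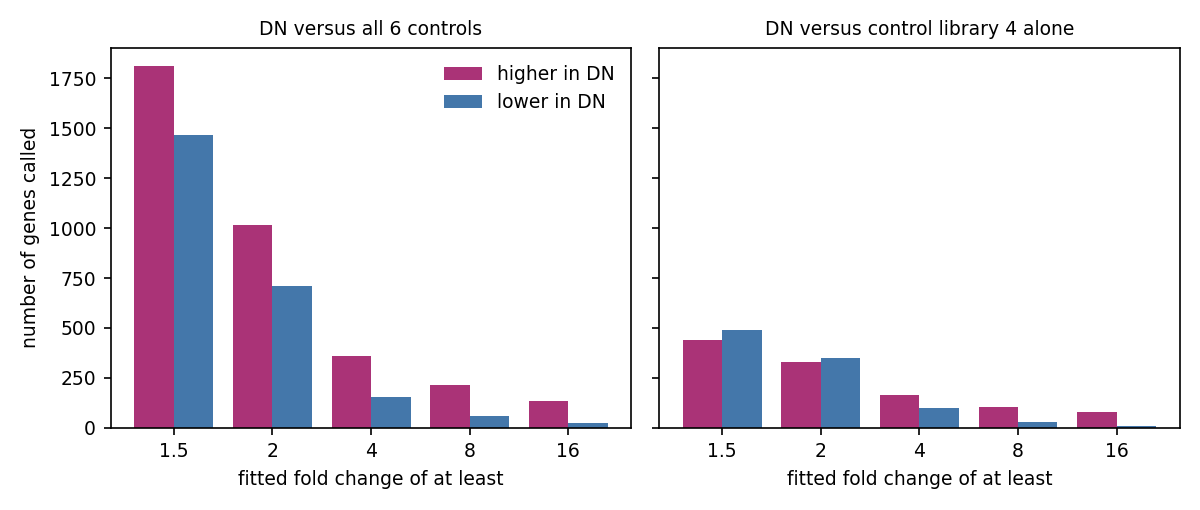
Number of genes called higher (magenta) or lower (blue) in DN at or above each fitted fold change, with all 6 controls on the left and against control library 4 alone on the right. At 16-fold or more the left panel holds 134 rises and 23 falls and the right panel 78 and 9.

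By level, the calls against library 4 were 51 higher and 22 lower under 1 CPM, 158 and 160 from 1 to under 10 CPM, 195 and 294 from 10 to under 100 CPM, and 47 and 59 at 100 CPM or more. As with all 6 controls, genes under 1 CPM were more often higher and genes from 10 CPM upward more often lower. From 1 to under 10 CPM the directions were nearly even, unlike with all 6 controls. These differences were not tested or checked under other settings. The filter on low counts can also favour rises over falls against library 4 in the lowest class. The share of genes called rose from 2.10% in the lowest class to 6.53% in the highest, beside 15.9% and 42.8% with all 6 controls.

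**Figure D2:**
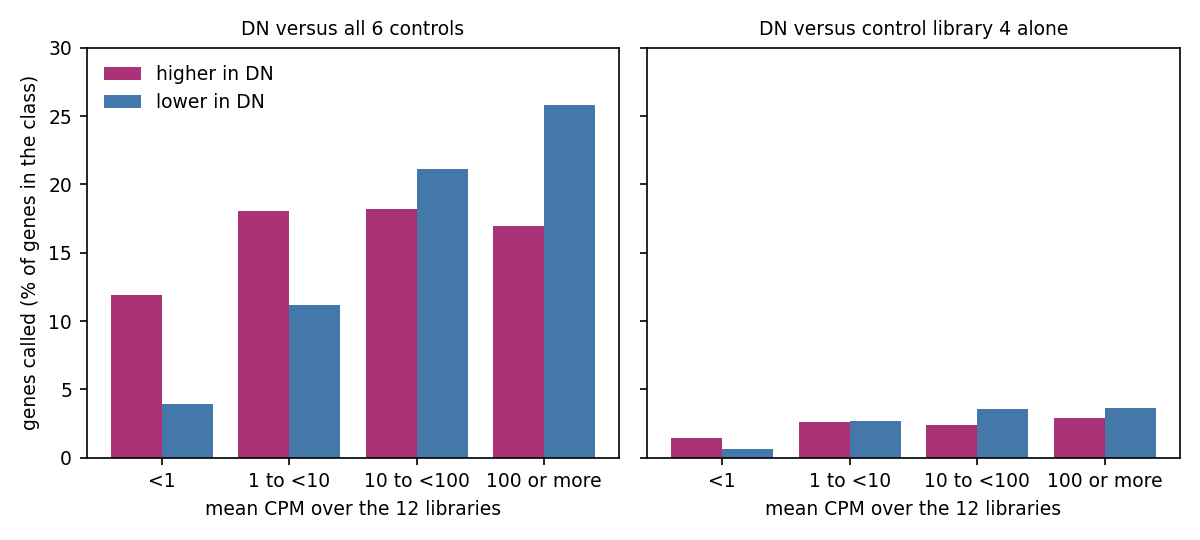
Percentage of genes called higher (magenta) or lower (blue) in DN within each class of mean CPM over the 12 libraries, for both sets of controls on the same axis. Lower calls outnumber higher calls from 10 CPM upward in both panels, and in the lowest class the order is the opposite.

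The identifiers printed here have the largest fold changes with all 6 controls, 2 upward and 2 downward, of the genes called in the same direction with all 6 controls and against library 4 alone that also averaged at least 5 CPM in the higher group. Such genes numbered 312 upward and 351 downward. Their differences chose them, so the values describe these transcripts and are no separate evidence.

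ENSMUSG00000116207 had 0 counts in each of the 6 control libraries. In DN it stood at 20.03 CPM at the lowest, 75.4 at the median and 90.7 at the highest, with 633 to 3084 counts per library. Every DN library was therefore far above every control, DN library 6 being the lowest and the other 5 lying between 65.7 and 90.7 CPM. Its DN mean of 69.3 ± 25.9 CPM (SD, n = 6) was at least 4059-fold higher than the controls, from a floor of 3 counts over the 6 control libraries, and at least 634-fold higher than library 4 with the floor of 3 counts in that library, both covering counting error only. The adjusted p was 8.77e-08 with all controls and 0.00187 against library 4 alone (edgeR).

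ENSMUSG00000095351 had 8 counts in control library 1 (0.289 CPM) and 0 in the other controls. DN libraries ranged from 5.98 CPM in library 5 through a median of 28.9 to 208 CPM in library 2. The groups did not overlap, but the DN libraries differed widely among themselves. With all 6 controls its log2 fold change was 10.24 (SE 1.10, edgeR adjusted p = 2.38e-06), without DN library 2 it was 9.29, and without control library 1, which held the only control counts, 13.76. Against library 4 its DN mean of 60.8 ± 75.8 CPM (SD, n = 6) was at least 556-fold higher (adjusted p = 0.0292). Without DN library 2 the mean was 31.4 ± 26.7 CPM (n = 5) and the bound 287-fold. The call against library 4 was lost without control library 1 (adjusted p = 0.0561).

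Of the falls, ENSMUSG00000075044 measured 59.1 to 89.1 CPM in the other 5 controls (median 70.2) and 19.7 CPM in control library 4. In DN it measured 1.93 to 3.80 CPM (median 2.98). Library 4 lay between the groups, below every other control and above every DN library. The log2 fold change was -4.50 (SE 0.30, edgeR adjusted p = 2.39e-08) with all 6 controls and -2.78 (SE 0.25, adjusted p = 3.11e-05) against library 4 alone. The other 5 controls were themselves higher than library 4 (log2 fold change 1.92, adjusted p = 0.00596). The size of this fall thus differed with the control chosen, while its direction was the same.

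ENSMUSG00000025153 varied widely among the controls, from 138 CPM in library 5 to 770 CPM in library 3 (median 488), with 619 CPM in library 4. In DN it measured 17.4 to 34.3 CPM (median 25.1), and even the lowest control lay above the highest DN library. The log2 fold change was -4.25 (SE 0.34, edgeR adjusted p = 8.59e-08) with all 6 controls and -4.66 (SE 0.43, adjusted p = 3.11e-05) against library 4 alone. Library 4 did not differ detectably from the other 5 controls for this gene (log2 fold change -0.50, adjusted p = 0.877). Its fall was as large against library 4 as against the rest.

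**Figure D3:**
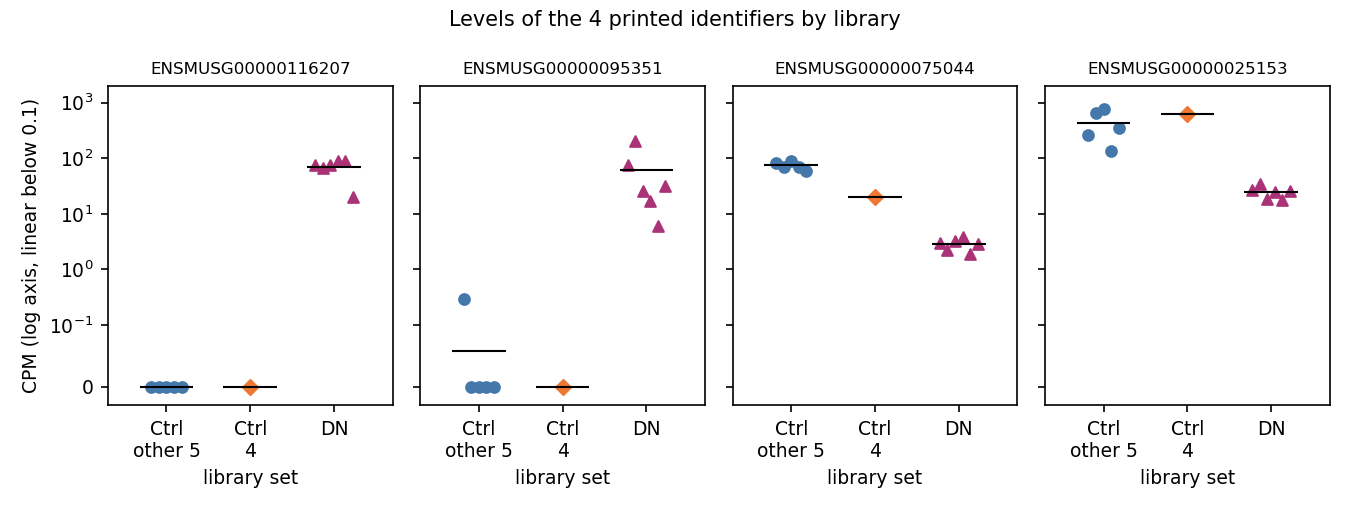
CPM of the 4 printed identifiers in each library (symmetric log axis, linear below 0.1 CPM), for the other 5 controls (circles), control library 4 (diamond) and DN (triangles), with horizontal lines at the mean of each set. Both rises are at or near 0 in all controls, and of the falls only ENSMUSG00000075044 has library 4 between the other controls and DN.

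To see how far each library shared the difference between the groups, it was left out in turn, genes called with at least a 2-fold change were chosen without it, and its own level was placed on a scale from 0 (mean log2 CPM of the other controls) to 1 (mean of the other DN libraries). The library placed took no part in choosing the genes. Each library therefore had its own set of genes and its own zero point. Library 4 entered those of the other controls but not its own, so positions of different libraries are not on quite the same scale. Control libraries 2, 3, 5 and 6 had median positions from -0.011 to 0 over 1600 to 1637 genes. Control library 4 stood at 0.23 over 1822 genes, with quartiles at -0.078 and 0.58 over genes, and 29.3% of the genes nearer to DN than to the other controls. Control library 1 stood at 0.13 over 1818 genes, with 23.2% nearer to DN, against 7.47% to 11.4% in controls 2, 3, 5 and 6. Library 4 was thus shifted toward DN but remained on the control side for most of these genes, and library 1 was shifted in the same direction by less. In library 4 the shift was alike for genes higher in DN (0.23) and lower in DN (0.22), and in library 1 it was 0.18 and 0.091.

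DN libraries 1 to 5 had median positions from 0.92 to 1.02. DN library 6 stood at 0.84, and for the genes lower in DN at 0.63, beside 0.94 for those higher. Of its genes, 76.1% were nearer to the other DN libraries than to the controls, against 86.2% to 92.1% in DN libraries 1 to 5. It was therefore the least extreme of the DN libraries on this scale, mainly through genes that fell. Leaving it out raised the calls against library 4 from 986 to 1401 and those with all 6 controls from 6202 to 6658. These positions share libraries and genes, and they are given as descriptions without a test.

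**Figure D4:**
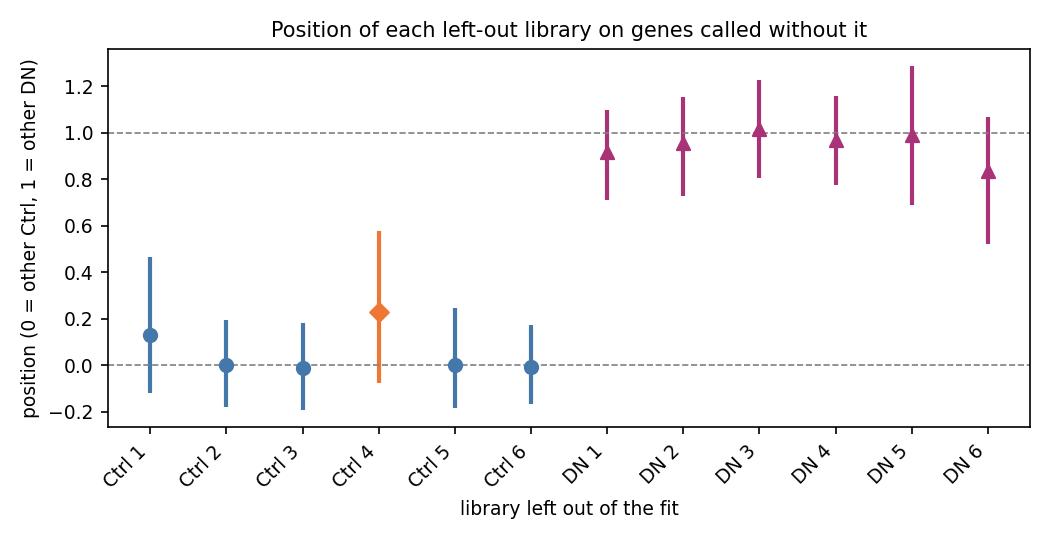
Median position of each left-out library (symbols; bars run from the lower to the upper quartile over genes) between the mean of the other controls (0) and of the other DN libraries (1), over genes called with at least a 2-fold change without it. Control library 4 (diamond) lies at 0.23, control library 1 at 0.13, the other controls near 0 and DN library 6 at 0.84.

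DN animals were also more unlike each other than most controls were. The median over genes of the SD of log2 CPM within a group was 0.275 in DN (n = 6) and 0.213 in Ctrl (n = 6). It was 0.184 without control library 4 (n = 5) and 0.174 without libraries 4 and 5 (n = 4). The difference between the groups was not tested.

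The direct contrast of the other 5 controls with library 4 called 259 genes (1.35%), 55 higher and 204 lower in the other 5. Most of the called difference between these controls therefore lay in genes that library 4 held at a higher level. The number limits what this shows, since library 4 is 1 animal against 5.

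Genes marking phases of the cell cycle could be matched by identifier. Dividing cells copy their DNA in S phase and build the mitotic machinery in G2 and M, and adult tubule cells divide seldom except after damage. The lists come from mouse embryonic stem cells, so their members need not follow division in kidney. For the G2M list, control library 4 had a mean log2 CPM of 3.25, the other 5 controls 2.18 to 2.36, and the DN libraries 2.41 to 2.60. DN lay above each of the other 5 controls and below library 4, and the 3 sets of libraries did not overlap. Against the other 5 controls 18 of its 78 tested genes were higher and 6 lower in DN, 30.8% in all (31.6% of all genes, 17.1% higher and 14.5% lower), with a median log2 fold change of 0.21. Against library 4 alone 0 were higher and 23 lower, 29.5% in all (5.13% of all genes, 2.34% higher and 2.78% lower), with a median of -0.62. The count of 23 lower was 13 without a filter on low counts. With all 6 controls pooled 7 were higher and 5 lower, 15.4% (32.2% of all genes), and the median was -0.011, beside 0.0079 over all genes. Without control library 4 the higher members numbered 18, and without DN library 6 they numbered 11. Both opposite medians had the same sign with RLE factors (0.20 and -0.62) and with library totals (0.20 and -0.73). The sign of the median for these genes thus differed between the sets of controls, and the pooled value lay between them. Against the other 5 controls the share called was near that of all genes, and the opposite sign rests on library 4 alone. No direction in DN is read from this list.

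For the S list (82 tested genes) library 4 was again highest, with a mean log2 CPM of 4.32. The other 5 controls had 3.90 to 4.00 and the DN libraries 3.96 to 4.15, so that these sets overlapped. For the S and G1 lists the shares over all genes are those given for the G2M list. They were 31.6% against the other 5 controls (17.1% higher, 14.5% lower) and 32.2% with all 6. With all 6 controls 10 members of the S list were higher and 10 lower in DN (24.4%). Against the other 5 controls 14 members were higher and 9 lower in DN (28.0%; median -0.0012), and against library 4 the counts were 1 and 8 (10.98%; median -0.13). The 8 lower members numbered 5 without DN library 2, 3 without DN library 3 and 1 without a filter on low counts. In the G1 list (127 tested genes) 15 were higher and 38 lower against the other 5 controls (41.7%; median -0.13), and 2 were higher and 7 lower against library 4 (7.09%; median -0.14). The 7 lower members numbered 14 without DN library 6 and 12 with library totals or DESeq2. Against library 4 the S and G1 counts are thus small and change with single libraries, and no direction is read from them.

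**Figure D5:**
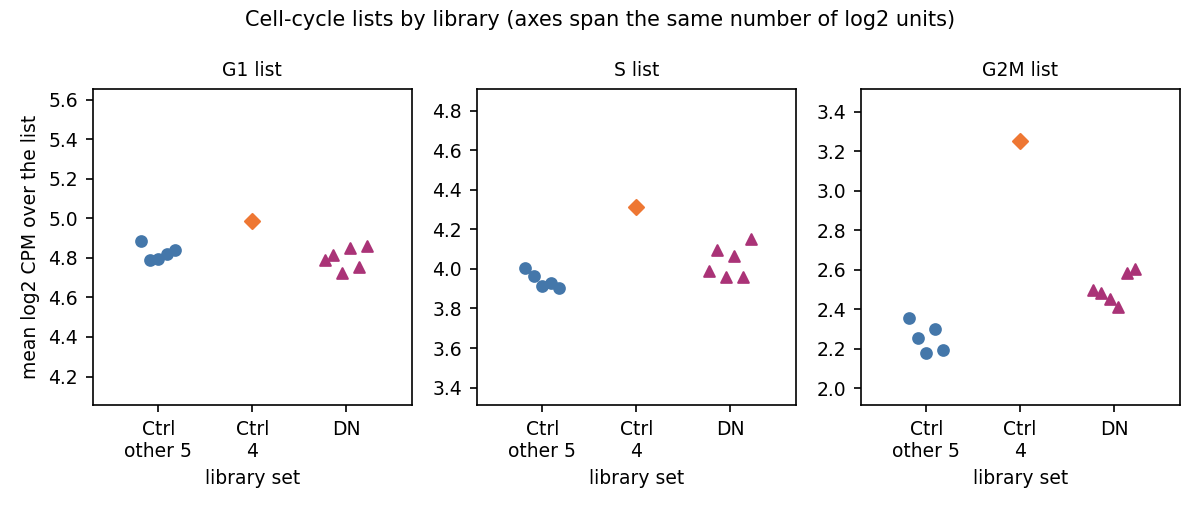
Mean log2 CPM over the genes of the G1, S and G2M lists in each library, for the other 5 controls (circles), control library 4 (diamond) and DN (triangles), with axes of equal span. Control library 4 lies above all other libraries in each panel, farthest in the G2M list, where the DN libraries (2.41 to 2.60) lie above the other 5 controls (2.18 to 2.36).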

How the data were processed

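The deposited table holds raw counts for each gene identifier and library, which the authors did not normalize. The submitters' processing notes name GRCm38 and mm10 as builds, both of the mouse. Aligner, counter, annotation and strandedness are not given in the labels or the file header. If the animals were rats, reads unlike the mouse sequence could be lost unevenly between genes.

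Columns were assigned by library name and groups by title. In R 4.3.3, edgeR 4.0.16 was used: filterByExpr, TMM factors, all 18 libraries in 1 fit with 1 coefficient per group, glmQLFit and glmQLFTest, calls at a Benjamini-Hochberg adjusted p under 0.05. Against control library 4 alone, that library had its own coefficient. CPM used TMM-scaled totals, and log2 CPM a prior count of 2. Fits were tested on simulated data that had the same dispersion for every gene and no division of the controls. That test cannot check the assumption that library 4 varies like the other libraries. SEs were derived from F statistics. Printed identifiers follow a rule for named genes (the largest changes called with both sets of controls, at least 5 CPM), without its condition on a symbol and limited to 2 per direction and comparison. Of the identifiers that divide the controls, which the rule also names, 3 are printed. Its part on list members could not be used. Cell-cycle lists were derived from marker pairs in scran 1.30.0: a gene with 10 or more pairs entered when its net share of first places was 0.8 or more in a phase and -0.5 or less in another, and genes in over 1 list were dropped. They were added after the data had been seen. Members and lists were chosen with earlier results of these data known. Libraries of a group differed beyond sampling noise in every pair (chi-square over its degrees of freedom, 15.4 or more), and n counts animals per the series description. Alternatives were DESeq2 1.42.0, RLE factors, library totals, other filters, fewer libraries and a replicate block.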

Additional observations from a re-analysis of the deposited data

Results flagged for a closer look

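In 7 of 26 sets of 6 values, 1 library lay far from the rest of its group by Dixon's criterion. The control values of ENSMUSG00000116207 were all 0 and could not be tested. Chance alone meets the criterion in about 1 of 20 unrelated sets, but these sets were partly related or chosen, so that rate is only a rough guide. Control library 4 accounted for 3 of the 7: its TMM factor was 1.04, its mean log2 CPM over the S list 4.32 and over the G2M list 3.25, each the highest among the controls. In DN library 5 the TMM factor was 0.886, the lowest of the DN libraries. DN library 6 had the lowest level of ENSMUSG00000116207 (20.03 CPM), and DN library 2 had the highest level of ENSMUSG00000095351 (208 CPM). Control library 1 held 0.289 CPM of ENSMUSG00000095351, the only counts of that identifier in a control.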

How the results depend on the processing

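The count of genes called with all 6 controls stayed within 1.5 times of 6202 in each of 21 alternative settings (5103 to 6714; 5103 to 6658 with single libraries left out, 2743 to 3475 higher and 2360 to 3183 lower; 5262 without control libraries 4 and 5 together). The count against control library 4 alone was less stable. Beside 986 calls (451 higher, 535 lower), it was 1695 with DESeq2 (933 higher), 641 without a filter (335 lower), and 1543 with only the 12 compared libraries in the fit (681 higher, 862 lower). Without any test, 2772 genes differed at least 2-fold with all 6 DN libraries on one side (1347 higher, 1425 lower). Single libraries left out gave 792 to 1401 (373 to 622 higher, 419 to 779 lower). The other 5 controls against library 4 gave 259 calls (55 higher, 204 lower), beside 444 with DESeq2 (137 higher, 307 lower), 445 with only the 12 libraries (122 higher, 323 lower) and 203 to 272 with single libraries left out (46 to 60 higher, 157 to 212 lower). The causes were not tested. Same replicate numbers did not pair the samples (correlations of deviations from -0.19 to 0.071, 0 of 6 over 0.1, and 1 of 6 controls correlating best with its own number). With the replicate block the counts were 5713 with all controls, 372 against library 4 (198 higher, 174 lower) and 82 for the division of the controls (25 higher, 57 lower). With it, members lower against library 4 numbered 5 of the G2M, 1 of the S and 3 of the G1 list. With all 6 controls, the lower members of the G1 list numbered 41, beside 25 without DN library 3 and 27 without control library 1. Among the 4 identifiers printed for DN against Ctrl, the log2 fold changes with all 6 controls kept their call and sign in 20 of 20 settings each. Against library 4, ENSMUSG00000095351 lost its call in 2 of 18 settings (adjusted p = 0.0554 with the replicate block and 0.0561 without control library 1), and the other 3 kept theirs. For genes under a few CPM in a single control library, counting depth limits what can be seen.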
